A study of Mus musculus with 6 samples.

Results

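The genes described here encode the keratins, the desmosomal cadherins and the proteins of the cornified envelope, and they were followed in mouse lungs at D14 and at D0 after orthotopic implantation of K7M2 cells. They were picked by symbol from the count table: keratins with a plain number (Krt7, Krt13), the small proline-rich (Sprr) and late cornified envelope (Lce) genes, desmogleins and desmocollins, and Lor, Krtdap, Sbsn, Dmkn, Cnfn, Rptn, Tgm1, Tgm3, Ivl and Evpl. This gave 73 genes of 29753 used lines. The pattern leaves out symbols with a trailing letter or number such as Krt6a, Krt6b, Lce1a1 and Lce1a2, which had at most 5, 2, 351 and 60 counts in a library.

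The D14 group comprised 3 lungs samples of balb/c mice taken 14 days after the implantation, and the D0 group 3 such samples taken on day 0 of it. K7M2 is a mouse osteosarcoma cell line that spreads to the lung, and the series title places the comparison in the formation of a pre-metastatic niche. Both groups carry the implantation in their label, and D14 lungs without implanted cells are not analysed here, so effects of the tumour, the procedure, age and collection day cannot be told apart. The labels number the libraries as biological replicates without tying each to a single mouse, and the p-values thus measure only how far these libraries spread. Bulk RNA was sequenced, and a lower level can mean fewer cells of a type or less RNA per cell, which cannot be told apart.

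Most of the genes sit in a few clusters. In GRCm38 coordinates from GENCODE, 28 lie on chromosome 3 between 92080271 and 93399442, in the epidermal differentiation complex with its Sprr and Lce families and Lor. Another 16 lie on chromosome 15 between 101347444 and 102032027, the type II keratins and Krt18, and 7 desmosomal cadherins lie on chromosome 18 between 19960930 and 20604521. All 73 were found in the annotation as protein-coding genes.

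Keratins form the intermediate filaments of epithelia from pairs of an acidic type I and a basic type II chain. Simple epithelia, such as those of alveoli and conducting airways, use Krt8 and Krt7 with Krt18 and Krt19. Stratified epithelia build a basal layer with Krt5 and Krt14 and, above it, Krt1 with Krt10 in the epidermis or Krt4 with Krt13 in the lining of the oesophagus and mouth. Desmosomal cadherins (desmogleins and desmocollins) join neighbouring cells and anchor these filaments at their membranes. In the uppermost squamous layers, transglutaminases crosslink loricrin, involucrin, Sprr and Lce proteins into the cornified envelope, an insoluble shell under the cell surface.

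Many of the squamous genes below shared an order of the libraries, though not all kept the same proportions, while the simple keratins varied much less. The windows around the transcription start of 2 genes of each kind are shown as a description, and their part in the levels was not tested. They run 250 bases before to 50 after the start, come from RefSeq on GRCm38.p6, and are written 5′ to 3′ on the strand of the gene. Capitals mark 3 short motifs on either strand, whose matches can overlap: the TATA box letters TATAAA, the letters of AP-1 sites, TGANTCA, and those of a GC box, GGGCGG. Krt13 lies at chr11:100121517-100121816 (minus strand), Lor at chr3:92083093-92083392 (minus), Krt8 at chr15:102004293-102004592 (minus) and Krt18 at chr15:102027966-102028265 (plus).
Krt13: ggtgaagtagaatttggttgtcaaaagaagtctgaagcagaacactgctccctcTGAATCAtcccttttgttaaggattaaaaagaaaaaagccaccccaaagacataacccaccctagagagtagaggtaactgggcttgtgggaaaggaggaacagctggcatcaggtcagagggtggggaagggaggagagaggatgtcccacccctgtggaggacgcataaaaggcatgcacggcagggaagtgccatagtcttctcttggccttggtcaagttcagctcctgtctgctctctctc
Lor: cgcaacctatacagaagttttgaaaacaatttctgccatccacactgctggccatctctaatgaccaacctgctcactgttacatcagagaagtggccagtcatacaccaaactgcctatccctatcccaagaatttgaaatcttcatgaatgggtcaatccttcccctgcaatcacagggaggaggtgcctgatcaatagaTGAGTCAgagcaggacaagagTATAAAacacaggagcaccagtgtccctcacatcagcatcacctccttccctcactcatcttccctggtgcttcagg
Krt8: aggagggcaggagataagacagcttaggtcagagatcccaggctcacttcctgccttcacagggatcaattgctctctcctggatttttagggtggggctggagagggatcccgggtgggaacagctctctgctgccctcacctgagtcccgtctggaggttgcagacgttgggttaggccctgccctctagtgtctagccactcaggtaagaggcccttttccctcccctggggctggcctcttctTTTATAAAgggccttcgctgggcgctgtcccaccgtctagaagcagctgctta
Krt18: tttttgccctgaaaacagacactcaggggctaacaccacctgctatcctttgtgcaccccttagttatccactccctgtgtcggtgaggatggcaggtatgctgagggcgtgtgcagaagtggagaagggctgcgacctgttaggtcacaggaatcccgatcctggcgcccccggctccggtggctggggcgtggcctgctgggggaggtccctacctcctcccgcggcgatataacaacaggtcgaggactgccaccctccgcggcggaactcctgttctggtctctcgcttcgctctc
The window of Lor held a TATAAA whose first base is 27 bases before the start and a TGANTCA match 48 bases before it. That of Krt13 held a TGANTCA match 196 bases before the start, that of Krt8 had 2 overlapping TATAAA matches on opposite strands, and that of Krt18 held none of these letters. Windows were found for 52 of the 73 genes, and some genes had more than 1. TGANTCA occurred in 13 of 45 windows of squamous genes (28.9%), in 0 of 4 windows of simple epithelial genes and in 7.8% of all 32851 windows. GGGCGG occurred in 4.4% of the squamous windows, 25% of the simple epithelial ones and 35.7% of all. TATAAA occurred in 31.1% of the squamous windows, 50% of the simple epithelial ones and 13.6% of all. The letters CACCC, scanned as well but not marked, occurred in 68.9%, 100% and 57.5% of these windows. Many squamous windows belong to gene copies of 1 family and are not independent, and a match describes letters only.

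The D14 libraries held 16171595 to 17385006 counts and the D0 libraries 14878101 to 16001097, so that 3 counts, the limit where a library has 0, correspond to 0.173 to 0.202 CPM, counts scaled to a common library size. This limit covers counting error only. D0 replicate 3 stood apart from every other library (mean chi-square per gene 68.7 to 127 against it, and 27.9 to 60.2 among the others). In it, haemoglobin genes took 4.99% of counts, against 0.985% to 2.77% elsewhere. Log2 fold changes without this library are given beside the results. Sftpc, the surfactant protein of alveolar type 2 cells, had 12870 to 18300 CPM in D14 libraries and 12450 to 34630 CPM in D0 libraries.

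No keratin, desmosomal cadherin or cornified envelope gene passed an adjusted p of 0.05 between D14 and D0 (edgeR quasi-likelihood test, Benjamini-Hochberg over all genes). The share of all 17686 tested genes that passed was 0.0339%, with 0.017% higher and 0.017% lower. Of the 73 genes, 38 passed the filter on low counts and were tested, and 35 did not. At an unadjusted p under 0.05 stood 14 of the 38, 1 higher and 13 lower at D14, while over all tested genes this share was 12.6% (5.48% higher and 7.09% lower). The 5 tested Lce genes, all among the 13, had 0 counts in D14 replicates 1 and 3. They could pass the filter only with D0 libraries, so their place among the lower genes follows in part from the filter. DESeq2 on the same counts also called 0, with 7 of the 38 given no adjusted p and a smallest adjusted p of 0.071 (Rptn), and limma-voom called 0. At an unadjusted p under 0.05 these tools counted 13 genes (12 lower) and 5 genes (4 lower). Their shares over all genes at that p are not given here, so these counts have no background beside them.

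By median, simple epithelial genes lay near 0 in log2 fold change and squamous genes below it, but single genes overlapped. Krt19, a simple keratin at −0.62, lay below the squamous genes Evpl (−0.50) and Tgm1 (−0.40). Of the simple epithelial keratins and the widely expressed desmosomal cadherins, 6 were tested, 4 with a positive and 2 with a negative log2 fold change (D14 over D0) and a median of 0.07. Of the squamous genes (basal and suprabasal keratins, squamous desmosomal cadherins, cornified envelope, Sprr and Lce genes) 28 of 52 were tested. All 28 had a negative log2 fold change, with a median of −3.71, where 53.1% of all tested genes were negative and their median was −0.03. Genes such as Lce3a, with 0, 8 and 0 counts at D14, could pass the filter only with D0 libraries. Their sign and part of the median follow from that, so the 28 cannot be set plainly against all genes. All 28 also had their highest CPM in D0 replicate 3, as 28.7% of all tested genes did. Without that library the median of the 28 was −2.03, and 26 were negative and 2 positive (Krt15 and Tgm1). In that fit 4 of the 38 tested keratin, cadherin and envelope genes stood at an unadjusted p under 0.05. Of these 3 were lower and 1 higher, where 5.98% of all genes were lower at that p. That count was 33 of 50 without D0 replicate 1 (32 lower, where 9.58% of all genes were lower at that p). It was 30 of 50 without D14 replicate 2 (all lower, against 4.03% of all genes). In these fits the filter passed more genes. Added genes such as Lce3d, with 0, 1 and 0 counts at D14, could pass only through their D0 counts. Such genes are lower at D14 by that choice, so these counts cannot be set against 14 of 38. The 14 also hold genes that needed their D0 counts to pass, among them the 5 tested Lce genes. Without D14 replicate 2 the median of the 28 squamous genes was −6.34, a value that depends on the prior count of the fit. Many of them then had 0 counts at D14. The 28 genes are not independent of each other, since families share reads and all were read in the same libraries.

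**Figure D1:**
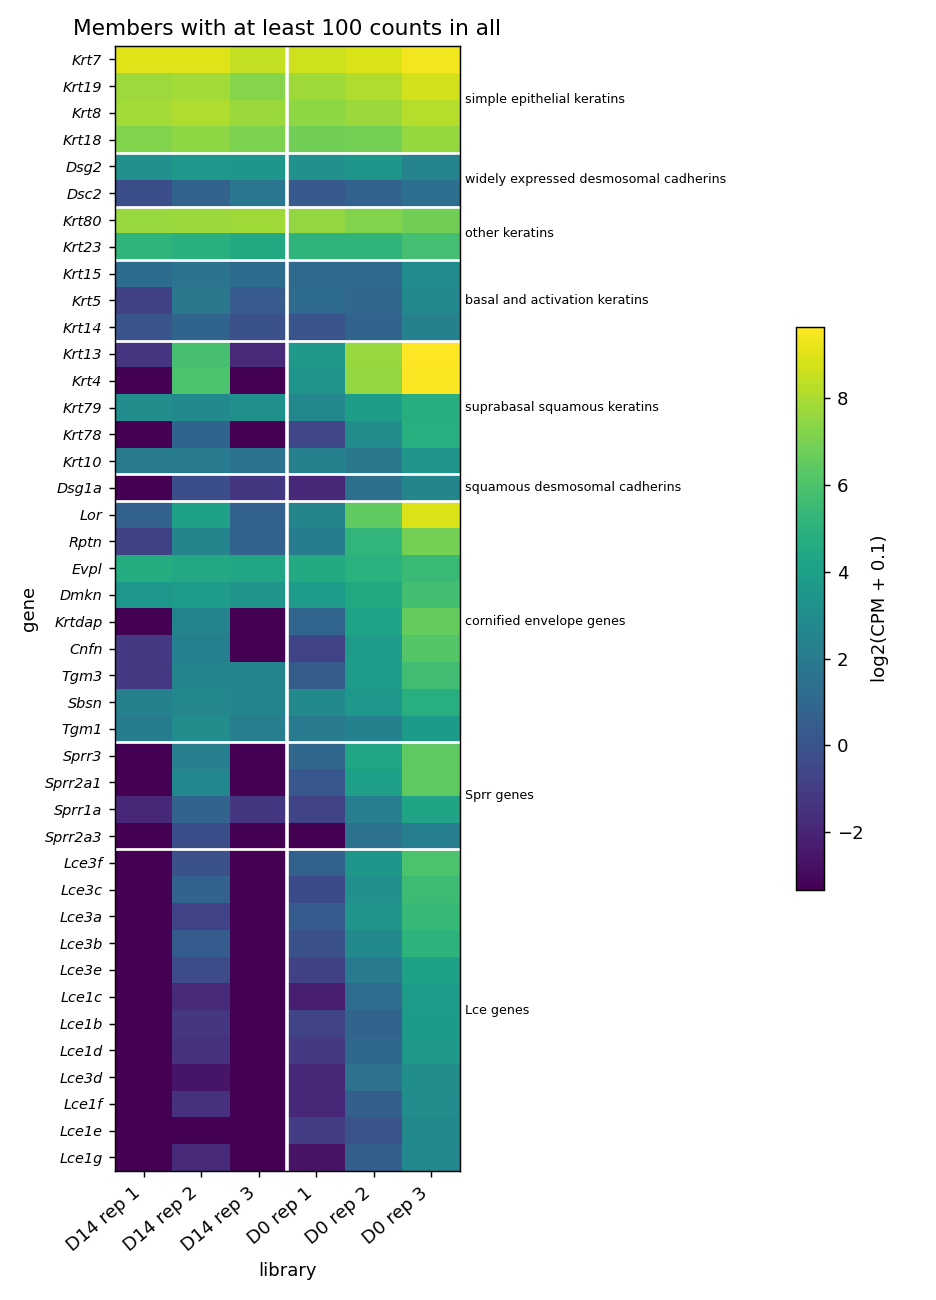
Levels of the 42 genes with at least 100 counts in all, as log2(CPM + 0.1), in D14 libraries (left) and D0 libraries (right of the white line), grouped by kind. The simple keratins at the top have much the same colour in all libraries, while the Lce genes at the bottom range from 0 counts in D14 replicates 1 and 3 to their highest level in D0 replicate 3.

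The 4 simple keratins that carry nearly all simple keratin counts were abundant in every library. Krt7, a type II chain of glandular and airway epithelium, had 523, 509 and 348 CPM in D14 libraries, against 417, 486 and 677 CPM in D0 libraries. Krt8, the type II chain of all simple epithelia, had 228, 275 and 203 CPM at D14 and 175, 209 and 293 CPM at D0. Krt18, its type I partner, had 147, 172 and 136 CPM at D14 and 114, 122 and 195 CPM at D0. For each of these 3 genes the D14 values lay inside the D0 range or overlapped it. Their log2 fold changes were −0.20 (SE 0.24) for Krt7, 0.06 (SE 0.23) for Krt8 and 0.08 (SE 0.23) for Krt18. The adjusted p-values (edgeR) were 0.733, 0.916 and 0.898. With D0 replicate 3 left out, the values were 0.03 for Krt7, 0.29 for Krt8 and 0.36 for Krt18.

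Krt19, the smallest type I keratin, present in airway epithelium and in the mesothelium around the lung, had 214, 229 and 158 CPM at D14 and 218, 271 and 433 CPM at D0. D0 replicate 3 was the highest library and the groups overlapped. The log2 fold change was −0.62 (standard error 0.28, adjusted p = 0.411, edgeR) and −0.29 without D0 replicate 3. Of 8 mesothelial markers, Krt19 among them, 4 were highest in D0 replicate 3 (Krt19, Msln, Upk3b and Upk1b), and Wt1, Lrrn4, Muc16 and Bnc1 were highest in D0 replicate 2. Wt1 (0.17) and Muc16 (0.41) had positive log2 fold changes. The summed level of the 8 was 731 to 847 CPM at D14 and 589 to 1561 CPM at D0, and its part in the Krt19 values was not tested.

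The partners Krt8 and Krt18 kept a nearly fixed ratio of counts, 1.56, 1.6 and 1.49 in D14 libraries and 1.53, 1.72 and 1.5 in D0 libraries. Krt8 shares 26.9% of its 50-base words with the pseudogene Krt8-ps. That row had 254 to 391 counts at D14, against 273 to 353 at D0, so reads could have been split between them. Per kilobase of the longest annotated transcript, mean levels at D14 were 127 CPM for Krt19, 120 for Krt8, 112 for Krt7 and 105 for Krt18. At D0 these levels were 195 CPM for Krt19, 129 for Krt7, 115 for Krt8 and 100 for Krt18. Neighbours in either order lay closer than the spread of the libraries, and the longest Krt7 transcript (4.09 kb) is long beside those of the other 3 (1.44 to 1.96 kb), which lowers its value. Krt20, the simple keratin of gut and urothelium, had 1 to 3 counts in D14 libraries and 1 to 5 in D0 libraries and was below the filter.

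Krt80, a type II keratin of differentiating epithelia, was the only gene of the 38 with a positive log2 fold change and an unadjusted p under 0.05. It had 198, 207 and 221 CPM in D14 libraries, against 188, 146 and 114 CPM in D0 libraries, so that the groups did not overlap. The log2 fold change was 0.48 (SE 0.20) with a p of 0.0444 and an adjusted p of 0.390 (edgeR). The direction was positive without each library in turn, with values from 0.32 to 0.69. Gm35853, annotated on the opposite strand with exons that overlap Krt80, had 43, 45 and 239 counts at D14, against 186, 125 and 13 at D0. The counting is not stated to use strand, so reads of these genes may not be separated.

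Krt23, a type I keratin of several simple epithelia, had 35.3, 30.1 and 23.6 CPM at D14 and 34, 35.1 and 54.1 CPM at D0. Its groups overlapped and its log2 fold change was −0.47 (standard error 0.24, adjusted p = 0.436, edgeR). Krt222, a keratin-like protein, had 0.753, 0.765 and 0.961 CPM at D14 and 0.814, 0.575 and 1.19 CPM at D0, a log2 fold change of −0.05 (SE 0.41). Krt23 stood at −0.22 and Krt222 at 0.24 without D0 replicate 3. Krt42, a type I keratin, had 0 counts in 5 libraries and 2 in D0 replicate 3.

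**Figure D2:**
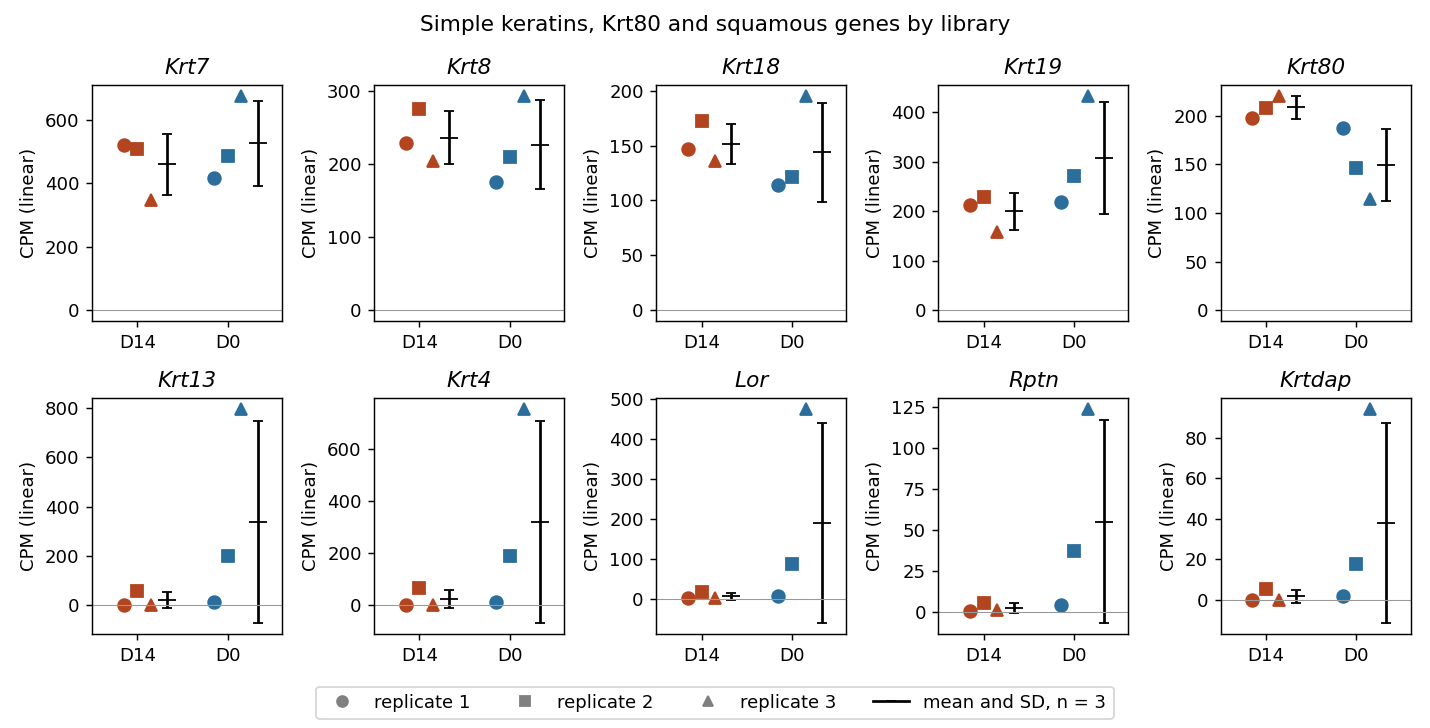
CPM of 10 genes in each library at D14 (left) and D0 (right); symbols give the replicate, and black bars the mean and SD (n = 3). The simple keratins differ less than 3-fold over all libraries, Krt80 is higher in all D14 libraries than in any D0 library, and in the lower row the highest point is D0 replicate 3 in each panel.

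Among the desmosomal cadherins, Dsg2, the desmoglein of all tissues with desmosomes, had 9.33, 12.1 and 11.1 CPM at D14 and 9.42, 11.4 and 5.41 CPM at D0. It was the reverse of the squamous genes in that D0 replicate 3 was its lowest library. Its log2 fold change was 0.31 (standard error 0.29, adjusted p = 0.646, edgeR), and 0.06 without D0 replicate 3. Dsc2, the matching desmocollin, had 13, 26 and 51 counts at D14, against 20, 25 and 36 at D0 (0.10 on the log2 scale, SE 0.56).

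The desmosomal cadherins of stratified epithelia were scarce. Dsg1a, a desmoglein of the upper squamous layers, had 0, 12 and 5 counts at D14, against 3, 42 and 85 at D0. Its groups overlapped, with a log2 fold change of −3.01 (standard error 1.25, adjusted p = 0.392, edgeR), and it shares 35% of its 50-base words with other genes, Dsg1b foremost. Dsc3, a desmocollin of basal layers, had 2, 13 and 11 counts at D14, against 11, 11 and 18 at D0 (−0.66, SE 0.66). These values were −1.97 for Dsg1a and −0.30 for Dsc3 without D0 replicate 3. Dsc1, Dsg1b and Dsg3 were below the filter, with at most 4, 5 and 7 counts in a D14 library and 64, 28 and 22 in D0 replicate 3, the highest library for each.

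Basal layer keratins were low in all libraries. Krt5, the type II keratin of basal cells in airway and skin, had 8, 53 and 19 counts at D14, against 38, 29 and 93 at D0. Krt14, its type I partner, had 17, 27 and 13 counts at D14, against 16, 26 and 71 at D0. Krt15, a type I keratin of basal cells, had 40, 46 and 36 counts at D14, against 35, 32 and 110 at D0. For Krt14 and Krt15 only D0 replicate 3 exceeded the highest D14 library. The log2 fold changes were −1.06 (SE 0.75) for Krt5, −1.08 (SE 0.65) for Krt14 and −0.63 (SE 0.55) for Krt15, with adjusted p-values (edgeR) of 0.540, 0.484 and 0.613. They were −0.27 for Krt5, −0.13 for Krt14 and 0.30 for Krt15 without D0 replicate 3. Krt17, a keratin of activated and appendage epithelium, had 3, 0 and 17 counts at D14, against 7, 4 and 0 at D0, below the filter.

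Trp63, the transcription factor that maintains basal cells, had 1.04, 1.66 and 1.86 CPM at D14 and 1.05, 0.831 and 1.9 CPM at D0. The 9 airway basal cell markers had summed levels of 1192 to 1516 CPM at D14 and 1485 to 1812 CPM at D0. Bcam and Icam1 made up most of these sums, with 924 and 558 CPM in D14 replicate 1 and 1122 and 629 CPM in D0 replicate 3. The sums thus say little of scarce markers such as Trp63. Of the 9 markers 4 had a positive and 5 a negative log2 fold change and 0 passed (median −0.31). The most abundant, Bcam and Icam1, stood at −0.33 (SE 0.18) and −0.31 (SE 0.17), and Krt5, Krt14 and Krt15 themselves are not in that list.

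The pair Krt13 and Krt4 spanned the widest range of CPM among the keratins. Krt13, the type I chain of internal stratified linings, had 5, 882 and 3 counts in D14 libraries, against 219, 3092 and 11364 counts in D0 libraries. Krt4, its type II partner, had 0, 977 and 0 counts in D14 libraries, against 177, 2931 and 10798 counts in D0 libraries. In CPM this was 0.29, 56.2 and 0.192 for Krt13 at D14 and 12.7, 198 and 798 at D0. In D0 replicate 3 both stood above every simple keratin, whereas in D14 replicates 1 and 3 they were at or near 0. D14 replicate 2 exceeded D0 replicate 1, so the groups overlapped. The log2 fold changes were −4.15 (SE 2.15) for Krt13 and −3.94 (SE 2.30) for Krt4, with adjusted p-values (edgeR) of 0.449 and 0.483. Without D0 replicate 3 they were −2.48 and −2.25. The spread within a group was large: the 3 D0 libraries ranged over 62.7-fold for Krt13 and 73.7-fold for Krt4, against 1.67-fold for Krt8.

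Krt78, a type II keratin of stratified epithelia, had 0, 27 and 0 counts at D14, against 10, 128 and 416 at D0 (−4.46 on the log2 scale, SE 1.68; adjusted p = 0.377, edgeR). Krt79, known in mouse skin from the funnel of the hair follicle, had 8.05, 7.21 and 9.04 CPM at D14 and 6.22, 15 and 26.6 CPM at D0 (−0.97, SE 0.46). The epidermal pair did not take part to the same degree. Krt10 had 67, 62 and 46 counts at D14, against 84, 55 and 151 at D0 (−0.81, SE 0.42). Krt78 stood at −2.93, Krt79 at −0.39 and Krt10 at −0.22 without D0 replicate 3. Krt1, its partner, had 6, 0 and 4 counts at D14, against 5, 1 and 7 at D0, and with Krt9 and Krt76 it was below the filter. Thus in D0 replicate 3 Krt4 and Krt13 together had 22162 counts and Krt1 and Krt10 together 158.

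Of the 10 cornified envelope genes outside the Sprr and Lce families, 9 were tested and all 9 had negative log2 fold changes, with a median of −2.53 and 0 past the threshold. Lor, loricrin, the main protein of the envelope, had 27, 262 and 25 counts in D14 libraries, against 102, 1379 and 6792 counts in D0 libraries. Rptn, repetin, an envelope precursor, had 8, 92 and 24 counts at D14, against 72, 582 and 1766 at D0. Krtdap, a secreted protein of differentiating keratinocytes, had 0, 87 and 0 counts at D14, against 31, 281 and 1343 at D0. In all 3, replicate 3 was the highest and replicate 1 the lowest D0 library, and D14 replicate 2 lay above D0 replicate 1. The log2 fold changes were −4.85 (SE 1.69) for Lor, −4.40 (SE 1.35) for Rptn and −4.37 (SE 1.85) for Krtdap. The adjusted p-values (edgeR) were 0.364, 0.364 and 0.400, and without D0 replicate 3 the log2 fold changes were −2.83, −2.98 and −2.42.

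Cnfn, cornifelin, had 6, 75 and 0 counts at D14, against 9, 221 and 1017 at D0 (−4.07 on the log2 scale, SE 1.8). Tgm3, a transglutaminase of hair and upper epidermis, had 6, 90 and 84 counts at D14, against 23, 218 and 726 at D0 (−2.53, SE 1.3). Here 2 D14 libraries exceeded D0 replicate 1. The value of Cnfn was −2.10 and that of Tgm3 −0.996 without D0 replicate 3.

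The other tested envelope genes were present in every library and ranged less. Dmkn, dermokine, had 12.1, 13.7 and 10.8 CPM at D14 and 13.6, 23.7 and 53.3 CPM at D0 (−1.31 on the log2 scale, SE 0.45; adjusted p = 0.364, edgeR). Sbsn, suprabasin, had 5.16, 6.25 and 5.7 CPM at D14 and 6.98, 11.9 and 28.9 CPM at D0, without overlap of the groups (−1.48, SE 0.48; adjusted p = 0.364, edgeR). Without D0 replicate 3 the log2 fold changes were −0.61 for Dmkn and −0.72 for Sbsn. Exons of Sbsn overlap Tmem147os, which had 48 to 56 counts at D14, against 51 to 89 at D0.

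Evpl, envoplakin, a plakin that ties the envelope to desmosomes, had 26.3, 22.5 and 19.7 CPM at D14 and 23.8, 31 and 42.1 CPM at D0 (−0.50, SE 0.23; adjusted p = 0.416, edgeR). Tgm1, the membrane-bound transglutaminase of keratinocytes, had 77, 126 and 70 counts at D14, against 67, 80 and 191 at D0 (−0.40, SE 0.49). The groups overlapped for both genes, and without D0 replicate 3 Evpl stood at −0.26 and Tgm1 at 0.33, with its sign turned. Ivl, involucrin, one of the first envelope proteins to be laid down, had 13, 4 and 7 counts at D14, against 5, 6 and 12 at D0, below the filter.

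The Sprr genes, whose proline-rich products bridge other envelope proteins, gave 4 tested genes of 7, all with negative log2 fold changes (median −3.73). Sprr3, the member most tied to oesophagus-type linings, had 0, 72 and 0 counts at D14, against 32, 319 and 1228 at D0 (−4.57, SE 1.8; adjusted p = 0.385, edgeR). Sprr2a1 had 0, 102 and 0 counts at D14, against 18, 249 and 1217 at D0 (−3.98, SE 1.91). Sprr1a, also induced in injured tissues, had 3, 26 and 5 counts at D14, against 9, 72 and 271 at D0 (−3.48, SE 1.27; adjusted p = 0.365, edgeR). Sprr2a3 had 0, 12 and 0 counts at D14, against 0, 43 and 64 at D0 (−3.22, SE 1.58). D14 replicate 2 was above D0 replicate 1 for each of the 4, and without D0 replicate 3 the values ran from −2.86 (Sprr3) to −1.83 (Sprr1a). Sprr2a1 and Sprr2a2 share over 96% of their 50-base words with other genes (96.3% and 96.5%) and overlap on the same strand, so how reads were divided between them is uncertain. Summed, the 3 Sprr2a rows had 0, 117 and 0 counts at D14, against 18, 294 and 1290 at D0. Sprr1b, Sprr2a2 and Sprr2k were below the filter, each highest in D0 replicate 3 with 50, 9 and 9 counts.

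The Lce genes, whose products enter the envelope last, had the most negative log2 fold changes. The 18 genes had 0 counts in all in D14 replicates 1 and 3. Lce3f had 0, 13 and 0 counts at D14, against 26, 182 and 904 at D0, and Lce3a had 0, 8 and 0 at D14 and 22, 166 and 591 at D0. For both, every D0 library exceeded every D14 library. The log2 fold changes were −6.52 (SE 1.74) for Lce3f and −6.68 (SE 1.6) for Lce3a, with p-values of 0.00786 and 0.00415 and an adjusted p of 0.347 each (edgeR). Without D0 replicate 3 the log2 fold changes were −4.56 for Lce3f and −5.09 for Lce3a. Lce3a had the smallest p of the 38 tested genes.

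Lce3c had 0, 25 and 0 counts at D14, against 11, 148 and 676 at D0 (−5.17 on the log2 scale, SE 1.8), and Lce3b had 0, 20 and 0 at D14 and 14, 111 and 470 at D0 (−5.00, SE 1.66). Lce3e stood at −4.91 (SE 1.54). For Lce3b, Lce3c and Lce3e, D14 replicate 2 was above D0 replicate 1, so the groups overlapped. Without D0 replicate 3 the values were −3.24 for Lce3c, −3.21 for Lce3b and −3.26 for Lce3e. Lce3d, below the filter, had 0, 1 and 0 counts at D14, against 3, 43 and 118 at D0. The summed Lce3 genes had 0, 78 and 0 counts at D14, against 84, 714 and 2999 at D0. The Lce3 genes share 12.1% to 49.3% of their 50-base words with other genes, so the division of reads within it is uncertain.

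All 12 Lce1 genes were below the filter, and their counts lay mainly in D0 replicates 2 and 3. Summed, they had 0, 24 and 0 counts at D14, against 31, 182 and 1122 at D0. Lce1c had 0, 3 and 0 counts at D14, against 2, 37 and 204 at D0, and Lce1b had 0, 5 and 0 at D14 and 9, 26 and 192 at D0. D0 replicate 3 had at least 5 times the CPM of the next library for Lce1b (13.5 CPM), Lce1c (14.3), Lce1d (12.4), Lce1e (6.95), Lce1f (8.08), Lce1h (3.09), Lce1i (5.06), Lce1j (2.32), Lce1k (2.67) and Lce1l (3.02). For example, Lce1d had 0, 4 and 0 counts at D14, against 6, 30 and 177 at D0, and Lce1f had 0, 4 and 0, against 3, 22 and 115. Lce1j had 0, 3 and 0 counts at D14, against 2, 2 and 33 at D0, and Lce1k had 0, 2 and 0, against 0, 5 and 38. Lce1h, Lce1i and Lce1l were at 0 in all D14 libraries. At D0 Lce1h had 0, 5 and 44 counts, Lce1i had 0, 12 and 72 and Lce1l had 1, 7 and 43. In each of them D0 replicate 3 stood far above the other libraries. Lce1e had 0 counts in all D14 libraries and 7, 14 and 99 at D0. Against a limit of 3 counts over the D14 group, its share of the pooled D0 counts was at least 43.3-fold that at D14. On the same basis the bound was 30.3-fold for Lce1i, 18.4-fold for Lce1l and 17.7-fold for Lce1h. These bounds cover counting error of pooled counts only, not the spread of the D0 libraries. Lce1h and Lce1i had 0 counts in D0 replicate 1 as well. Bounds were computed only for genes at 0 in all D14 libraries. With D0 replicate 3 left out the bounds were 11.2-fold for Lce1e, 6.4-fold for Lce1i, 4.26-fold for Lce1l and 2.67-fold for Lce1h. Lce1m had 12 counts, all in D0 replicate 3.

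Hair and inner root sheath keratins, which build hair shafts and their sheath, were near the limit of counting. Only Krt87 of these 10 was tested. Krt87 had 19, 23 and 17 counts at D14, against 16, 6 and 13 at D0, without overlap of CPM (0.71 on the log2 scale, SE 0.43; adjusted p = 0.492, edgeR), and shares 36.9% of its 50-base words with other genes. Krt32 had 0, 4 and 0 counts at D14, against 0, 3 and 26 at D0. No other gene of this kind exceeded 13 counts in a library. Over all 38 tested genes, 5 had groups that did not overlap: Krt80 and Krt87 higher, and Lce3a, Lce3f and Sbsn lower at D14. That is 13.2%, against 21.6% of all tested genes.

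**Figure D3:**
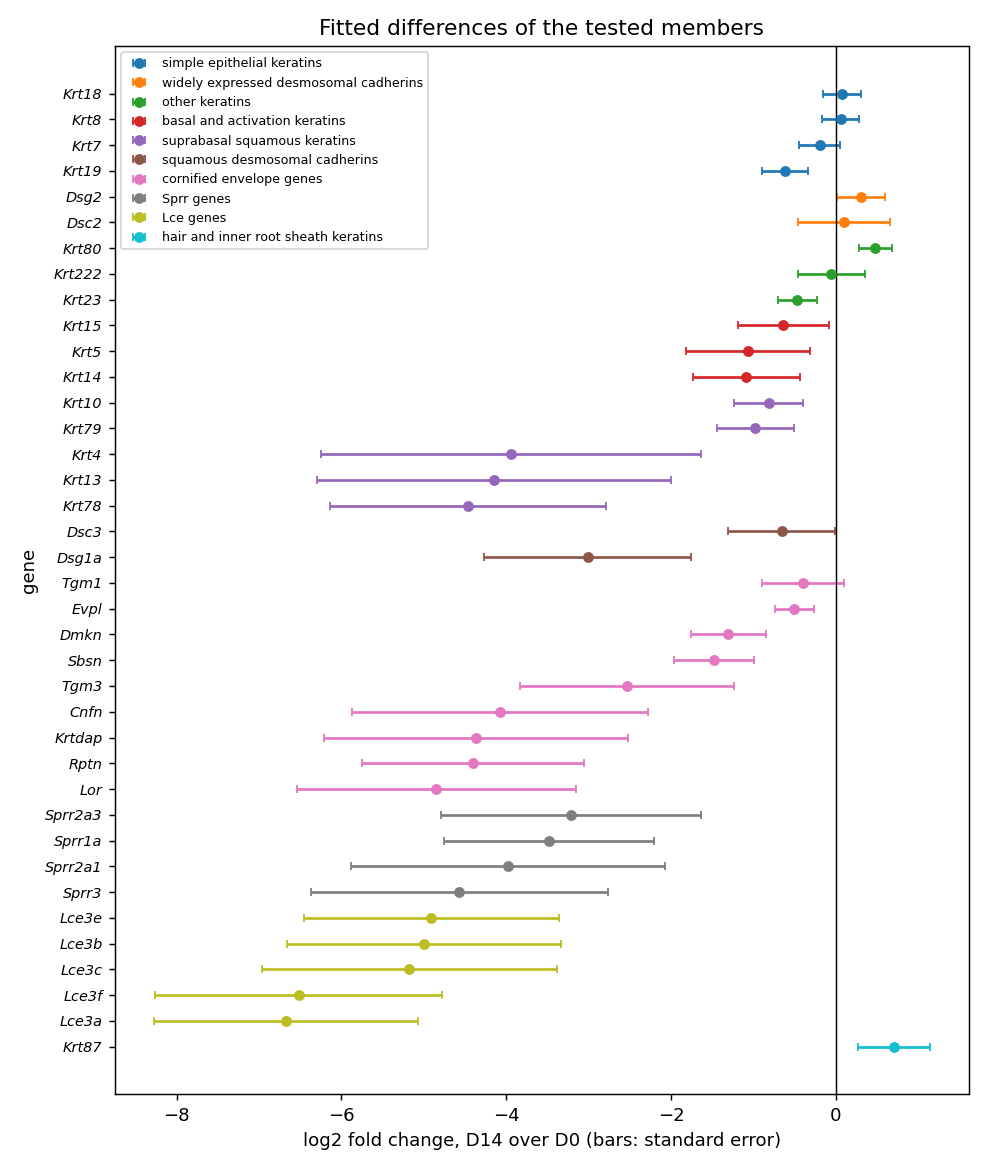
Log2 fold change of D14 over D0 for the 38 tested genes, with bars of 1 standard error, grouped by kind. The simple keratins, Dsg2, Dsc2 and Krt80 lie within 1 unit of 0, and the Lce genes reach −6.68 with standard errors above 1.5.

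The order of the libraries was shared by most squamous genes. It was noticed after the values were seen and is given as a description. Of the 28 tested, 22 had their highest CPM in D0 replicate 3 and the next in D0 replicate 2, and 17 had D14 replicate 2 in the third place. Over all tested genes these orders held in 10.6% and 2.61%. In 23 of the 28, D14 replicate 2 exceeded D0 replicate 1. Among the 24 squamous genes below the filter, 22 also had their highest CPM in D0 replicate 3.

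Summed over the 52 squamous genes, D14 libraries had 68.3, 252 and 68.9 CPM, against 114, 771 and 3104 CPM in D0 libraries. This was 0.00678%, 0.0244% and 0.00665% of the counts at D14, against 0.0123%, 0.0798% and 0.297% at D0. Of the 52 genes 33, 10 and 33 had 0 counts in the D14 libraries, and 10, 2 and 1 in the D0 libraries. Krt4, Krt13 and Lor made up 2.71%, 53.7% and 2.61% of the squamous counts at D14, against 25.3%, 61.4% and 65.5% at D0. The summed simple epithelial genes had 1121, 1198 and 860 CPM at D14 and 935, 1100 and 1606 CPM at D0, a range of 1.87-fold over all libraries where the squamous sum ranged over 45.5-fold.

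In the 4 libraries with more than 200 Krt13 counts, several squamous genes kept a similar proportion to Krt13 while the level changed. Krt4 had 1.11 counts per Krt13 count in D14 replicate 2 (95% exact interval for counting error 1.01 to 1.22). In the D0 libraries this ratio was 0.808 (0.659 to 0.990) in replicate 1, 0.948 (0.901 to 0.997) in replicate 2 and 0.95 (0.925 to 0.976) in replicate 3. The lowest and the highest ratio thus differed by 1.37-fold, while Krt13 itself ranged over 62.7-fold in the D0 libraries. The ratio to Krt13 also varied by less than 2-fold for Sprr2a1 (1.44), Krt78 (1.49), Krtdap (1.56), Tgm3 (1.64), Sprr1a (1.77), Sprr3 (1.79) and Dsg1a (1.83). Some of these ratios rest on few counts in D0 replicate 1: 3 for Dsg1a (0.0137, interval 0.0028 to 0.0406), 9 for Sprr1a and 10 for Krt78. Outside the 4 libraries Tgm3 did not follow Krt13, with 84 counts in D14 replicate 3 where Krt13 had 3.

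Other squamous genes did not keep that proportion. Lce3a had 0.00907 counts per Krt13 count in D14 replicate 2 (0.0039 to 0.0179), against 0.1 (0.0617 to 0.156), 0.0537 (0.0457 to 0.0628) and 0.0520 (0.0478 to 0.0565) in D0 replicates 1, 2 and 3. Lce3f ranged over 8.06-fold and Lce3a over 11.1-fold in this ratio. Of the tested squamous genes with counts in all 4 libraries, Evpl (35.5-fold), Dsc3 (31.7), Krt10 (28.9) and Krt5 (21.2) had the widest ranges. Tgm1, Krt15, Dmkn, Sbsn, Krt79 and Krt14 followed, with 11.7-fold to 18.2-fold. Krt5 had 0.0601 counts per Krt13 count in D14 replicate 2 (0.0447 to 0.0793) and 0.174 (0.12 to 0.246), 0.00938 (0.00627 to 0.0135) and 0.00818 (0.0066 to 0.01) in D0 replicates 1, 2 and 3. Krt5, Krt14, Krt10 and Krt79 thus did not follow Krt13 from library to library as Krt4 and Krt78 did.

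**Figure D4:**
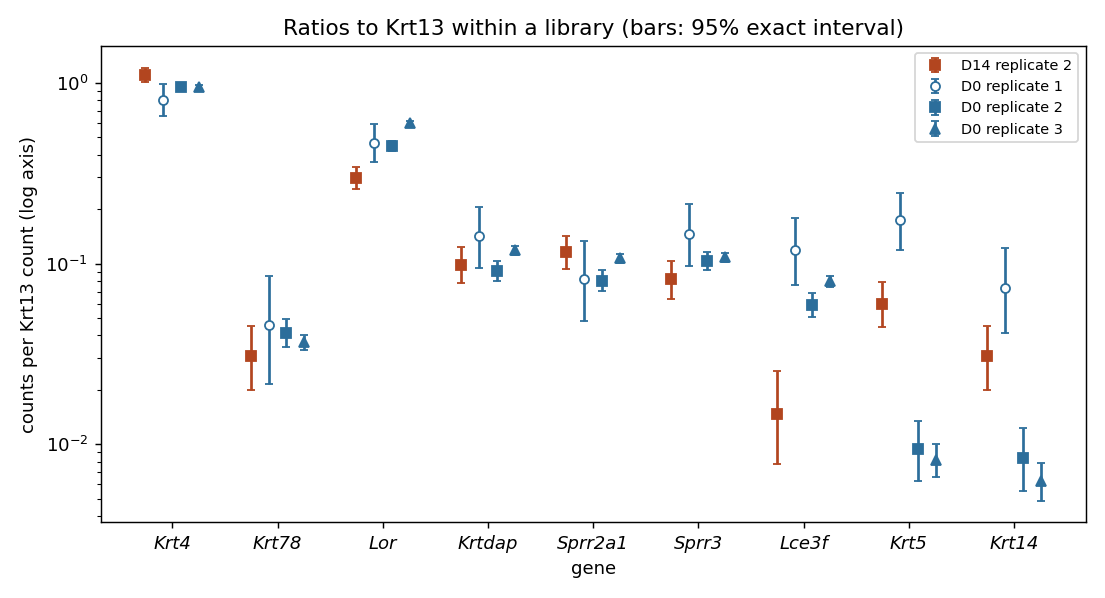
Counts of 9 genes per Krt13 count (log axis) in D14 replicate 2 and the 3 D0 libraries, with 95% exact intervals for counting error. Krt4, Krt78, Krtdap, Sprr2a1 and Sprr3 keep similar ratios, Lce3f is lowest in D14 replicate 2, and Krt5 and Krt14 are highest in D0 replicate 1.

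Genes of the same pathway outside this set were read from further lists. Of 34 other squamous barrier genes with a line of counts, 19 were tested, 18 with negative log2 fold changes and 1 positive (median −1.40), 12 of them at an unadjusted p under 0.05, all lower, and 0 past the adjusted threshold (edgeR). Over all tested genes 7.09% stood lower at that p. Of the 12, Crct1, Gsdma and Spink5 had 0 counts in D14 replicates 1 and 3 and could pass the filter only with D0 libraries. Of the 19, 17 were highest in D0 replicate 3, and without it their median was −0.96 and 4 were lower at an unadjusted p under 0.05 (5.98% of all genes in that fit). That count was 5 without D14 replicate 1 (6.66% of all genes) and 6 without D14 replicate 3 (3.79%). Their most abundant members, Ppl and Fabp5, stood at −0.31 (SE 0.19) and −0.56 (SE 0.32) on the log2 scale. Crct1, a cornified envelope family gene that neighbours the Lce cluster, had 0, 2.81 and 0 CPM at D14 and 2.15, 22.6 and 101 CPM at D0. Asprv1, a protease of the upper epidermis, had 1.74, 12.1 and 1.86 CPM at D14 and 2.79, 41.3 and 179 CPM at D0. Both followed the same library order as Lor, and without D0 replicate 3 their log2 fold changes were −3.73 for Crct1 and −2.08 for Asprv1 (−5.50 and −3.83 with it). Those 2 genes were chosen after their values were seen.

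The desmosome plaque, which joins the cadherins to keratin, was steadier. Of its 8 genes 3 had positive and 5 negative log2 fold changes, with a median of −0.26 and 0 called. Jup, plakoglobin, had 432, 620 and 530 CPM at D14 and 458, 327 and 333 CPM at D0 (0.50, SE 0.21; adjusted p = 0.392, edgeR). Pkp4, a plakophilin-related armadillo protein, stood at 0.24 (SE 0.14) and Dsp, desmoplakin, at 0.01 (SE 0.18). Pkp1, the plakophilin of stratified epithelia, had 0, 1.08 and 0.128 CPM at D14 and 0.756, 3.51 and 12.2 CPM at D0 (−3.76, SE 1.29; adjusted p = 0.364, edgeR), with the library order of Lor among the 4 highest libraries and −2.39 without D0 replicate 3. Jup is shown as 1 of the 2 most abundant members with Pkp4, and Pkp1 and Dsp were named after their values were seen.

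Among squamous regulators, 15 of 18 were tested, of which 4 were positive and 11 negative (median −0.16) and 0 passed. Hopx, also a marker of alveolar type 1 cells, had 814, 376 and 597 CPM at D14 and 676, 899 and 885 CPM at D0 (−0.46, SE 0.29). Klf4, a zinc finger factor of barrier epithelium and endothelium, had 325, 234 and 253 CPM at D14 and 110, 176 and 121 CPM at D0, without overlap and opposite in direction to the envelope genes (0.99, SE 0.23; adjusted p = 0.326, edgeR). Of 12 markers of the alveolar repair state, in which Krt8 is raised, 4 were positive and 8 negative and 0 passed (median −0.30), Krt8 and Sprr1a being among them. Its most abundant members were Krt8 and Clu, and Clu stood at −0.37 (SE 0.31).

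Markers of other tissues were summed in the same libraries. Of 9 skin and oesophagus markers in the table, Krt76 among them, 3 were tested and 0 passed (median −0.25), with −5.50 for Crct1, −0.25 (SE 0.21) for Mal, and a mean of 1.49 CPM at D14 and 1.51 CPM at D0 for Mlana, a melanocyte gene. Their sum was 36, 34.5 and 27.5 CPM at D14 and 37.6, 54.6 and 163 CPM at D0, with Mal and Crct1 the most abundant. In this sum D14 replicate 2 was below D14 replicate 1 and D0 replicate 1, unlike in the squamous sum. Mal made up most of the counts in those libraries. It had 580 of 622 in D14 replicate 1, 463 of 541 in D14 replicate 2 and 584 of 646 in D0 replicate 1. For Crct1 and Hrnr, D14 replicate 2 was above D14 replicate 1 and D0 replicate 1 in CPM, as in the squamous sum. In the list Flg, filaggrin of the epidermis, had at most 0.319 CPM at D14 and 1.05 CPM at D0, in replicate 3. The melanocyte gene Dct had at most 0.463 CPM at D14 and 0.492 CPM at D0. Hrnr had 0, 9 and 0 counts at D14, against 6, 38 and 175 at D0. Tmprss11d had 0, 2 and 0 counts at D14, against 0, 12 and 17 at D0, and like Hrnr it was below the filter. Of the 9 markers 8, all but Psca, had their highest CPM in D0 replicate 3, as 28.7% of all tested genes did. The 8 skeletal muscle markers had sums of 28.2, 189 and 33.5 CPM at D14 and 114, 239 and 1032 CPM at D0. That is the same order of libraries as for the squamous sum, and a range of 36.7-fold. Of the 8 muscle genes 7 had a negative log2 fold change, 5 at an unadjusted p under 0.05, and 0 passed (median −2.80). Over all tested genes 7.09% were lower at that p. Pvalb, among the 5, had 0 counts in D14 replicates 1 and 3 and could pass the filter only with D0 libraries. Without D0 replicate 3 their median was −1.34 and 0 were at an unadjusted p under 0.05, as were 0 without D14 replicate 1 and 0 without D14 replicate 3. The median was −5.63 without D14 replicate 2, with all 8 lower at that p, against 4.03% of all genes in that fit. Acta1, skeletal actin, had 1.51, 70 and 5.19 CPM at D14 and 42.2, 72.5 and 327 CPM at D0. Ckm, muscle creatine kinase, had 21.6, 54 and 25.7 CPM at D14 and 32.5, 78.8 and 302 CPM at D0. The part of these tissues in the squamous values was not tested.

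Lung epithelial markers moved less. The 10 alveolar type 2 markers had sums of 33780, 32780 and 26210 CPM at D14 and 25750, 36270 and 57970 CPM at D0, highest in D0 replicate 3 as for the simple keratins (median log2 fold change −0.25, 1 positive and 9 negative). Its leading genes Sftpc and Lyz2 stood at −0.46 (SE 0.39) and −0.44 (SE 0.33). The 10 alveolar type 1 markers had sums of 5881 to 7161 CPM at D14 and 6242 to 8483 CPM at D0 (median −0.20), and the 10 pan-epithelial markers 697 to 782 and 764 to 860 CPM (median −0.20). Club and ciliated cell markers had a median of 0.34, with sums of 18390 to 25600 CPM at D14 and 9331 to 18900 CPM at D0. Of their most abundant genes, Emp2 and Ager of type 1 cells stood at −0.04 (SE 0.20) and −0.29 (SE 0.28), Cdh1 and Epcam of all epithelia at 0.03 (SE 0.14) and −0.16 (SE 0.20), and Scgb1a1 and Cyp2f2 of club cells at 0.62 (SE 0.35) and 0.36 (SE 0.23). None of these 4 lists, nor the mesothelial list (median −0.55), had a gene past the adjusted threshold (edgeR). At an unadjusted p under 0.05 they held 0, 1, 1, 1 and 1 genes, where 12.6% of all tested genes stood at that p.

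**Figure D5:**
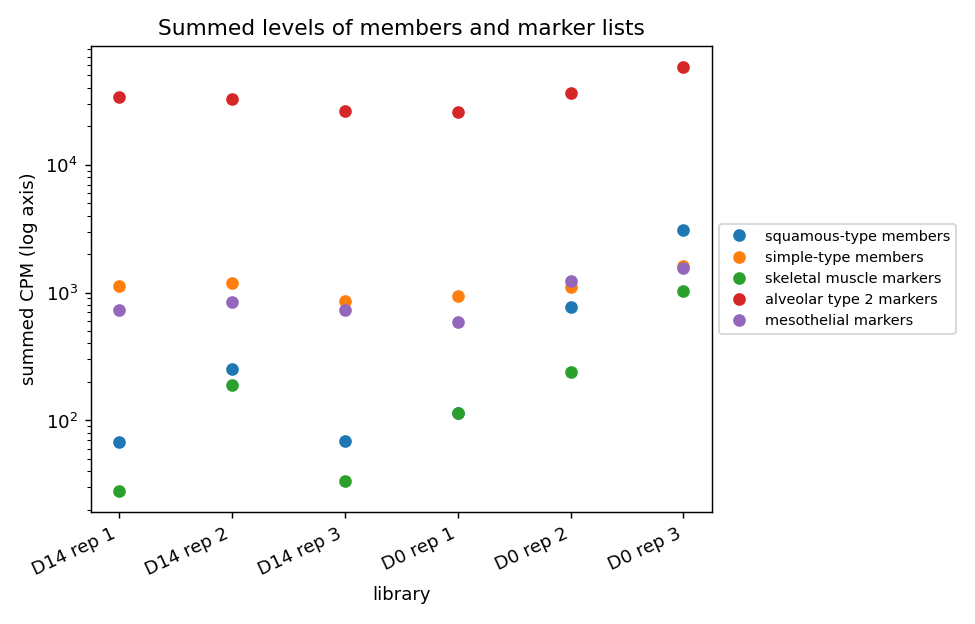
Summed CPM (log axis) of the squamous genes, the simple epithelial genes and 3 marker lists in each library, D14 on the left and D0 on the right. The squamous genes and the skeletal muscle markers are both lowest in D14 replicates 1 and 3 and highest in D0 replicate 3, while the alveolar type 2 markers and simple epithelial genes change by 2.25-fold and 1.87-fold over all libraries.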

How the data were processed

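Total RNA was sequenced from 3 D14 and 3 D0 lung samples. Per the labels' protocols it was isolated with TRIzol and chloroform, in a text that names bone marrow-derived macrophages where the tissue label gives lungs, and libraries were made with an NEB kit. The tools HISAT2 2.1.0, StringTie 1.3.4b, CASAVA 1.8 and edgeR and the build GRCm38 were used per the submitters' processing notes, which give no role or order; which tool counted reads, and whether by strand, is not given in the sources used here. The authors deposited a table of estimated counts with 1 line per gene, unscaled, and these were rounded (the values used were already whole). Of 29757 lines 4 were left out, 2 empty and 2 displaced after them, and 50 lines repeating a symbol were kept apart; none was a member.

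Tests used edgeR 4.0.16 in R 4.3.3 (TMM factors, default low count filter, robust quasi-likelihood F test, two-sided, all 6 libraries, no covariate), with Benjamini-Hochberg adjustment over 17686 genes at 0.05. SE stands for the log2 fold change divided by the root of the F statistic. CPM were scaled by TMM. The test was tested on simulated data. No library pair agreed within sampling noise. With 3 libraries a group an exact permutation test of 1 gene cannot go below p = 0.1, so none was run. Alternatives were DESeq2 1.42.0, limma-voom (limma 3.58.1), other scalings and filters, a fit without robust estimation, the replicate block, each library left out, and, chosen after seeing the data, summing repeated symbols, the same settings for tested members beyond the naming rule, and lists and lower bounds with libraries left out. Members and lists were chosen with earlier results of these data known. Genes named with values were, per kind, the 4 most abundant and the 2 of smallest p in each direction, those with 1 library 5 times above the next and at least 20 counts, and those without overlap at a mean of at least 1 CPM; other genes that are named complete their kind or were chosen after their values were seen. Lists outside the set are given by their 2 most abundant genes, with some others chosen after their values were seen. Shared 50-base words were counted on the longest GENCODE M21 transcripts.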

Additional observations from a re-analysis of the deposited data

How the results depend on the processing

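The number of keratin, cadherin and envelope genes past the threshold was 0 under every alternative run. The count over all genes was 6 in the reported fit, 272 with DESeq2, 26 with no low count filter and 0 with the replicate block, and 0 to 22 with 1 library left out; the cause was not tested. The median log2 fold change of the tested squamous genes was −3.71 and stayed negative under every alternative, from −8.01 without D14 replicate 2 to −2.03 without D0 replicate 3 where 1 library was left out, over the genes tested in each fit. That of the simple epithelial genes was 0.07 and lay between −0.10 and 0.18 with 1 library left out, and between 0.01 and 0.08 otherwise. Of the 38 tested genes 7 changed direction under some alternative, none of them past the threshold in any: Dsc2, at −0.0643 with limma-voom and −0.0318 with the replicate block, and with 1 library left out Dsc2 (−0.54 to 0.49), Krt15 (−0.94 to 0.30), Krt18 (−0.0585 to 0.36), Krt222 (−0.27 to 0.24), Krt7 (−0.33 to 0.0286), Krt8 (−0.0867 to 0.29) and Tgm1 (−0.73 to 0.33). The deviations of libraries with the same replicate number from their group means had correlations of 0.119, −0.055 and −0.097. With 3 libraries a group, whose deviations sum to 0, these values cannot decide whether the number pairs libraries. The labels do not say that it does, so it is not taken to pair them. The block left 0 of these genes past the threshold. With 3 libraries a group, and many squamous genes at 0 counts in some of them, differences of the size of the standard errors could not be detected.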
